A study of Mus musculus with 12 samples.

Results

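The mRNAs of the NMDA receptor subunits were followed in cultured mouse hippocampal neurons given a soluble ErbB4 ectodomain, a γ-secretase inhibitor, or both. The subunits were chosen by gene name alone (Grin1, Grin2a, Grin2b, Grin2c, Grin2d, Grin3a and Grin3b), and all 7 were found among the 19336 named loci of the table. Under the inhibitor Grin2c fell 2.66-fold, while Grin2a and Grin2b rose 1.36-fold and 1.38-fold and the low Grin3b fell 1.60-fold, as averages over the cultures with and without soluble ErbB4. The fall of Grin3b, which had 13 to 40 counts per library, was not called by DESeq2 (adjusted p = 0.0505) or limma. With limma it missed only the fold limit (adjusted p = 0.0044), on a log2(CPM + 2) scale that shrinks folds of such low levels. Grin1 was 1.19-fold higher, a change smaller than the fold asked of a call. Grin2d and Grin3a did not pass the test, and none of the 7 passed it in response to soluble ErbB4.

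Cultures were made from hippocampi of WT mice at P4 and kept for 8 days in culture before treatment. The groups, each with 3 libraries, were vehicle, sErbB4 (20 nM of the soluble ErbB4 ectodomain, 4 h), DAPT (20 µM of the γ-secretase inhibitor, begun the day before), and DAPT + sErbB4, in which DAPT preceded the ligand. All 12 libraries therefore share genotype, postnatal age and days in culture. Their labels carry VV, and the study uses WT for V/V mice, those without its Nrg1 mutation. The labels give the start of DAPT as overnight and the study's text as 24 h. The study describes its culture replicates as separate platings of pups from several litters.

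NMDA receptors are tetrameric glutamate-gated calcium channels that also need glycine or D-serine to open. Grin1 encodes the obligatory GluN1 subunit, which binds glycine. Grin2a to Grin2d encode the glutamate-binding GluN2 subunits, which set how long the channel stays open and how strongly magnesium blocks it, and Grin3a and Grin3b encode glycine-binding GluN3 subunits with low calcium permeability. In the forebrain GluN2B dominates early and GluN2A joins after birth, whereas GluN2C is best known from cerebellar granule cells and has also been described in astrocytes. γ-Secretase cuts membrane proteins such as Notch and Nrg1, releasing intracellular domains, and ErbB4 is a receptor of Nrg1 whose ectodomain can act back on it.

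The subunit genes are spread over 7 chromosomes (GENCODE vM21, mm10). Grin1 lies on chromosome 2 (25291181 to 25319187), Grin2a on chromosome 16 (9567898 to 9995560), Grin2b on chromosome 6 (135713233 to 136173511) and Grin2c on chromosome 11 (115249169 to 115267243). Grin2d lies on chromosome 7 (45831883 to 45878378), Grin3a on chromosome 4 (49661611 to 49845744) and Grin3b on chromosome 10 (79970715 to 79977190). All but Grin3b are on the minus strand. The genes differ widely in size, and the longest annotated transcripts of Grin2a and Grin2b hold 14634 and 24060 bases against 3283 for Grin3b and 4895 for Grin2c.

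The promoters of the subunits that fell, Grin2c and Grin3b, and of the obligatory Grin1, which was higher, are shown so that the start sites of the genes that moved in opposite directions can be set side by side (RefSeq, GRCm38.p6, 250 bases before to 50 after the start, gene strand, 5′ to 3′). Capitals mark GGGCGG, the core of the GC box, on either strand. The Grin2c window lies at chr11:115267194-115267493, that of Grin3b at chr10:79970474-79970773 and that of Grin1 at chr2:25319138-25319437.
Grin2c: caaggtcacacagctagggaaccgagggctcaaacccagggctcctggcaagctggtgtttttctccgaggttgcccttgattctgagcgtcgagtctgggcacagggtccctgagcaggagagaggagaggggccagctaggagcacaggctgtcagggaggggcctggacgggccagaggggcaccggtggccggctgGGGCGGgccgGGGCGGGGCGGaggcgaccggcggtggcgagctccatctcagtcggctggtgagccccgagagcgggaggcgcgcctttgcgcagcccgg
Grin3b: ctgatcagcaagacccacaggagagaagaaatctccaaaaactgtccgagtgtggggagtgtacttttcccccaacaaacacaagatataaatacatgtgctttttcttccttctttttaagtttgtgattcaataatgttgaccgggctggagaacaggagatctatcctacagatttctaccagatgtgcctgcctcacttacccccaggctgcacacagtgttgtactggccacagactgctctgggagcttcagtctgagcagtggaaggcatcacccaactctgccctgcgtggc
Grin1: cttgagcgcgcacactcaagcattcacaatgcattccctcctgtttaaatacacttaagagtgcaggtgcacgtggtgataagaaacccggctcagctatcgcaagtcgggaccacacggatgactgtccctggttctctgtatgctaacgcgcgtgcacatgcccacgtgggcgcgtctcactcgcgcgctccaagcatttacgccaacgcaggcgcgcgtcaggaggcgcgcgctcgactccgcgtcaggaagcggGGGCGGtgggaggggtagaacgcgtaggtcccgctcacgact

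The Grin2c window held GGGCGG 3 times, a pair of these sharing a base, the Grin1 window held it 1 time and the Grin3b window 0 times. The same letters occurred in 35.7% of all 32851 promoter windows of this length. TGGGAA, the core recognized by Rbpj, the DNA-binding partner of the Notch intracellular domain, was in 25.6% of all windows and shares no position with the capitals. It was found on neither strand of these windows, which says only that the letters are not there. The windows also differed in CpG dinucleotides, with 33 in Grin1, 22 in Grin2c and 3 in Grin3b against a median of 7 over all promoters. The RefSeq table also held Grin2d, with 12 CpG dinucleotides and neither motif, but not Grin2a, Grin2b or Grin3a.

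Levels are given in CPM, counts scaled to a common library total over named loci with TMM factors. The deposited values followed transcript length only weakly (Spearman's rho -0.0854 across 12534 genes, which are not independent), so that CPM levels were read as levels per length and compared between genes. In vehicle cultures Grin1 led with 73.1 ± 6.93 CPM (SD, n = 3), followed by Grin2b with 29.6 ± 2.98 CPM and Grin2c with 10.5 ± 0.324 CPM. Next came Grin3a with 7.23 ± 0.203 CPM, Grin2d with 6.45 ± 0.921 CPM and Grin2a with 5.44 ± 0.576 CPM, and Grin3b was last with 1.05 ± 0.166 CPM. The ranges of Grin3a and Grin2d overlapped, as did those of Grin2d and Grin2a, so these neighbours were not ordered beyond their spread, whereas the other neighbours in this order were apart in all 3 libraries. With DAPT, Grin2c moved from the third place to the sixth, below Grin3a, Grin2a and Grin2d, whose neighbouring ranges overlapped in both groups with DAPT. The order of the first and second places and of the last was the same in all 4 groups.

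**Figure D1:**
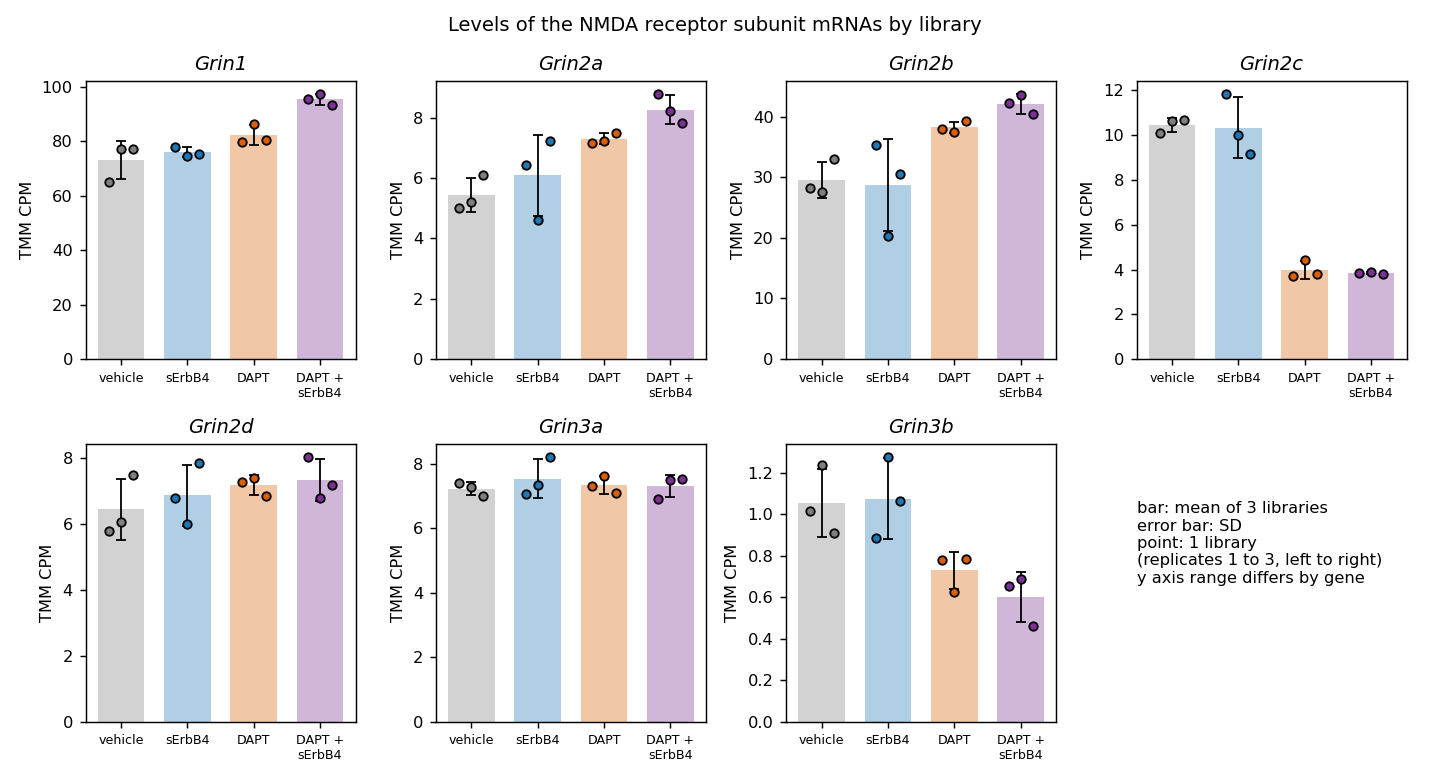
Level of each NMDA receptor subunit mRNA (TMM CPM, linear axis from 0, with a different range for each gene) in the 4 treatment groups. Points are libraries, bars are means and error bars are SD (n = 3); the 6 Grin2c points with DAPT lie between 3.70 and 4.42 CPM, below all 6 points without it (9.16 to 11.8 CPM).

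A gene was called when its adjusted p (edgeR's quasi-likelihood test, Benjamini-Hochberg over 15656 genes) was under 0.05 and its change over the study's fold limit, 0.32 on the log2 scale. The comparison of DAPT with vehicle asks what blocking γ-secretase does in unstimulated cultures, and 2 of the 7 subunits were called in it, where 11.6% of all genes were called. Grin2a was higher (4.66% of genes were) and Grin2c was lower (6.92% of genes were). DAPT + sErbB4 against sErbB4 asks the same with the ligand present and shares no library with the first comparison. In it 5 of the 7 were called against 11.7% of all genes. Of these, 3 were higher (Grin1, Grin2a and Grin2b, background 4.55%) and 2 lower (Grin2c and Grin3b, background 7.15%). Averaged over both, 4 of the 7 were called, 2 in each direction, where 13.2% of all genes were.

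Grin2c showed the widest change of the family. Its levels were 10.1, 10.6 and 10.7 CPM in the vehicle libraries and 9.16, 10.0 and 11.8 CPM with sErbB4. With DAPT they were 3.70, 3.82 and 4.42 CPM, and with DAPT + sErbB4 they were 3.805, 3.83 and 3.91 CPM. All 6 libraries with DAPT thus lay below all 6 without it. How many of all genes separate in this way was not counted, here or for the subunits below. The log2 fold change was -1.40 ± 0.0988 (SE) for DAPT against vehicle (2.63-fold lower, 95% interval -1.61 to -1.18, adjusted p = 2.3e-06, edgeR). It was -1.42 ± 0.0977 with sErbB4 present (2.68-fold lower, adjusted p = 1.8e-06, edgeR). The difference between these changes was -0.03 with a 95% interval of -0.38 to 0.32. The call was made in 20 of 20 alternative fits of either comparison, and leaving out each library in turn gave log2 changes from -1.501 to -1.32 in cultures with sErbB4.

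Grin2b, the most abundant GluN2 mRNA, moved the other way. Its libraries stood at 27.5, 28.3 and 33.0 CPM in vehicle, and at 20.4, 30.5 and 35.4 CPM with sErbB4, the widest spread within a group. With DAPT they stood at 37.5, 38.0 and 39.3 CPM, and with DAPT + sErbB4 at 40.4, 42.3 and 43.6 CPM. The 6 libraries with DAPT were above the 6 without, but the gap between 35.4 and 37.5 CPM was narrow. Against vehicle the log2 change of 0.37 ± 0.150 did not pass the test (adjusted p = 0.10, edgeR), and with sErbB4 present Grin2b rose by 0.56 ± 0.148 (1.47-fold, adjusted p = 0.017, edgeR). The low value belonged to sErbB4 replicate 2. Without it, the DAPT + sErbB4 change was 0.35 (adjusted p = 0.012, edgeR) and that of DAPT against vehicle, whose own libraries stayed as they were, passed the test (0.37, adjusted p = 0.0046). Leaving out sErbB4 replicate 1 also brought the latter past the threshold (0.37, adjusted p = 0.045), and leaving out DAPT + sErbB4 replicate 2 ended the former (0.53, adjusted p = 0.057). Fitting only the libraries compared did both, with 0.37 against vehicle (adjusted p = 0.0074) and 0.56 with sErbB4 present (adjusted p = 0.063).

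Grin2a, the subunit that joins receptors after birth, was about as low as Grin2d and Grin3a. It measured 5.01, 5.22 and 6.10 CPM in vehicle and 4.60, 6.44 and 7.24 CPM with sErbB4. It measured 7.17, 7.24 and 7.51 CPM with DAPT and 7.82, 8.21 and 8.78 CPM with DAPT + sErbB4. Only the highest sErbB4 library reached the range of the DAPT libraries. Grin2a rose by 0.43 ± 0.141 on the log2 scale with DAPT (1.34-fold, adjusted p = 0.048, edgeR) and by 0.45 ± 0.135 with sErbB4 present (1.37-fold, adjusted p = 0.030, edgeR). The first of these calls sat at the threshold and was lost in 11 of 20 alternative fits, among them those without vehicle replicate 1 (0.36, adjusted p = 0.17) or 2 (0.40, adjusted p = 0.12), without any 1 of the DAPT libraries (0.42 to 0.45, adjusted p = 0.088 to 0.11), without any 1 of the DAPT + sErbB4 libraries (adjusted p = 0.059 to 0.066) and without sErbB4 replicate 1 (adjusted p = 0.054). The second was lost in 5 of 20, including the fit without sErbB4 replicate 2, where the change was 0.27 (adjusted p = 0.060), and those without DAPT + sErbB4 replicate 1, 2 or 3 (0.41, 0.45 and 0.48, adjusted p = 0.095, 0.073 and 0.057). The average over both was called in 18 of 19 alternative fits.

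Grin1, without which no NMDA receptor forms, shifted less. Vehicle libraries held 65.1, 77.1 and 77.1 CPM and sErbB4 libraries 74.6, 75.5 and 78.0 CPM. DAPT libraries held 79.8, 80.5 and 86.4 CPM and DAPT + sErbB4 libraries 93.4, 95.5 and 97.2 CPM. No library with DAPT fell into the range of those without, a pattern whose share over all genes was not counted. Against vehicle the log2 change of 0.17 ± 0.0618 did not pass the test (adjusted p = 0.070, edgeR). Among the 20 alternative fits its lowest adjusted p was under 0.05, but log2 changes of 0.092 to 0.21 kept all of them under the fold limit. With sErbB4 present Grin1 rose by 0.33 ± 0.0613 (adjusted p = 0.0024, edgeR), just past the fold limit. The call was lost in 4 of 20 alternative fits by the fold alone, without sErbB4 replicate 2 (0.31), sErbB4 replicate 3 (0.32) or DAPT + sErbB4 replicate 2 (0.31) and with unnamed loci kept (0.32), with adjusted p of 0.0038 to 0.012. The average change of 0.25 ± 0.0435 had an adjusted p of 0.00087 (edgeR) but stayed under the fold limit.

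Grin3b, a GluN3 subunit, was near the lower end of what these libraries measure, with 13 to 40 rounded counts per library. Its levels were 0.910, 1.02 and 1.24 CPM in vehicle and 0.885, 1.06 and 1.28 CPM with sErbB4, against 0.626, 0.780 and 0.784 CPM with DAPT and 0.462, 0.652 and 0.688 CPM with DAPT + sErbB4. The 6 libraries with DAPT again lay below the 6 without it. The log2 change against vehicle was -0.52 ± 0.274 and did not pass the test (adjusted p = 0.21, edgeR), and with sErbB4 present Grin3b fell by 0.84 on the log2 scale (SE 0.274, adjusted p = 0.044, edgeR). This call sat near the threshold and was made in 4 of 20 alternative fits. Leaving out 11 of the 12 libraries in turn ended it, among them the vehicle and DAPT libraries, which this comparison does not use. The lowest support came without sErbB4 replicate 2 (-0.70, adjusted p = 0.17) or DAPT + sErbB4 replicate 3 (-0.68, adjusted p = 0.17). Without sErbB4 replicate 1 the call was kept (-0.96, adjusted p = 0.041). The average change of -0.68 ± 0.194 (adjusted p = 0.016, edgeR) was called in 16 of 19 alternative fits. It was not called without sErbB4 replicate 2 (-0.61, adjusted p = 0.051) or with DESeq2 (-0.68, adjusted p = 0.0505). With limma it missed only the fold limit (-0.22, adjusted p = 0.0044). The limma scale, log2(CPM + 2), shrinks folds at levels this low, so that this missed call is no separate evidence on the change. Of the 3296 exonic bases annotated for Grin3b, 32.1% are shared with Tmem259 on the other strand, which held 1804 to 3291 counts per library. Whether strand was used in counting is not given in the sources used here, and without it the reads of the 2 genes cannot be told apart there. Tmem259 was not called (log2 change -0.13, adjusted p = 0.066, edgeR, with sErbB4 present).

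Grin2d and Grin3a gave no call in any comparison. Grin2d, a subunit with slow kinetics found in interneurons, ranged from 5.79 to 7.85 CPM without DAPT and from 6.80 to 8.04 CPM with it, with log2 changes of 0.15 (95% interval -0.11 to 0.41) and 0.10 (-0.16 to 0.35). Grin3a, the other GluN3 subunit, ranged from 7.01 to 8.22 CPM without DAPT and from 6.91 to 7.64 CPM with it, with changes of 0.02 (-0.22 to 0.26) and -0.04 (-0.25 to 0.16). For Grin3a, changes beyond the fold limit lie outside both intervals, whereas those of Grin2d reach past it. The exons of Grin2d and Grin3a share no base with those of the overlapping Kdelr1 and Ppp3r2. For Grin1, 13.5% of the annotated exonic bases overlap the antisense Grin1os, which held at most 4.38 counts in a library.

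**Figure D2:**
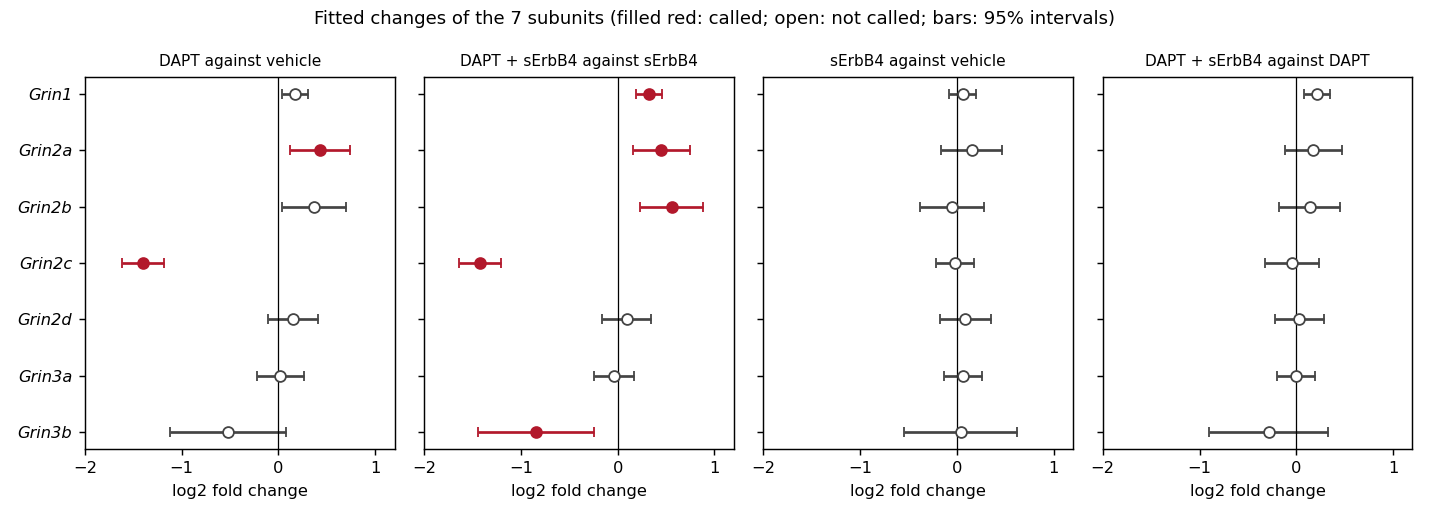
Log2 fold change of each of the 7 subunits (x axis) in 4 comparisons, with 95% intervals from edgeR's quasi-likelihood test. Filled red points were called and open points were not; Grin2c stands at -1.40 and -1.42 in the panels that compare DAPT with its control and near 0 in both sErbB4 panels.

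sErbB4 was compared with vehicle to ask what the ligand does alone, and 0 of the 7 subunits were called where 0.0319% of all genes (5) were. None reached an unadjusted p under 0.05 (edgeR), and DESeq2 and limma also called 0. The log2 changes ran from -0.05 for Grin2b (95% interval -0.39 to 0.28) to 0.15 for Grin2a (-0.16 to 0.47). For Grin1, at 0.06 (-0.08 to 0.19), and Grin2c, at -0.02 (-0.21 to 0.18), changes beyond the fold limit lie outside the interval. With DAPT present, 0 of 7 were called for DAPT + sErbB4 against DAPT, where 0% of all genes were (1442 of the genes had an unadjusted p under 0.05, and DESeq2 called 8 and limma 1), and DESeq2 and limma called 0 of the 7 as well. Of the 7, 1 had an unadjusted p under 0.05 (edgeR). This was Grin1, with a log2 change of 0.21 ± 0.0612 (adjusted p = 0.35, edgeR), and the 3 libraries of the combined treatment all lay above those of DAPT alone (93.4 to 97.2 against 79.8 to 86.4 CPM). Among the 20 alternative fits its lowest adjusted p was under 0.05, but log2 changes of 0.18 to 0.25 kept all of them under the fold limit.

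The difference between the DAPT effects with and without sErbB4 was tested as an interaction, and 0 of the 7 subunits were called where 0.00639% of all genes (1) were. No subunit had an unadjusted p under 0.05 (edgeR), and DESeq2 and limma called 0. It was 0.16 for Grin1 (95% interval -0.03 to 0.35), 0.19 for Grin2b (-0.27 to 0.65) and -0.32 for Grin3b (-1.17 to 0.52). That Grin1, Grin2b and Grin3b were called with sErbB4 present and not without it is therefore not shown to be a difference between these settings. In sErbB4 against DAPT, the direct comparison of the ligand and the inhibitor, 1 of 7 was called where 10.1% of all genes were, and Grin2c was 2.60-fold higher with sErbB4 (log2 change 1.38 ± 0.0974, adjusted p = 2.6e-06, edgeR). This comparison uses the same DAPT and sErbB4 libraries as those above.

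The makeup of the GluN2 mRNA pool followed from these levels. Grin2c formed 20.2% ± 1.44 (SD, n = 3) of the summed Grin2a to Grin2d level in vehicle and 20.2% ± 3.90 with sErbB4, against 7.02% ± 0.695 with DAPT and 6.25% ± 0.170 with DAPT + sErbB4. Grin2b took 56.9% ± 1.09, 54.7% ± 4.49, 67.4% ± 1.06 and 68.4% ± 1.30 in the same order of groups. Grin2a took 10.5% ± 0.244, 11.7% ± 1.35, 12.9% ± 0.168 and 13.4% ± 0.459, and its range without DAPT (10.2 to 13.2%) overlapped that with DAPT (12.8 to 14.0%). The share of Grin2d overlapped as well (11.3 to 14.6% and 10.9 to 13.1%). These shares restate the levels and were not tested again.

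**Figure D3:**
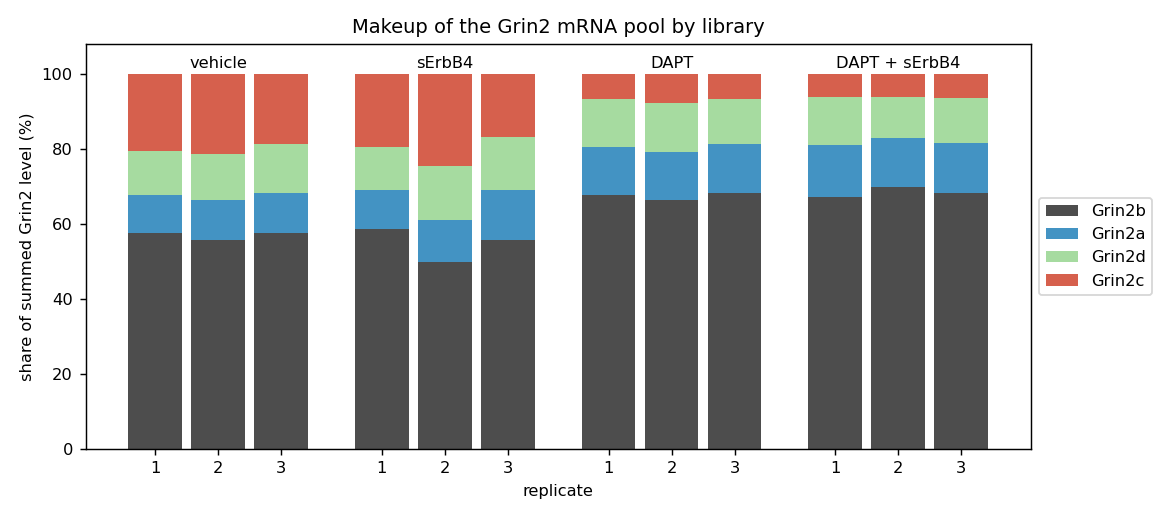
Share of each Grin2 gene in the summed Grin2a to Grin2d level (percent of TMM CPM, stacked to 100) in each of the 12 libraries. Grin2c (top segment) makes 16.7 to 24.4% in the 6 libraries without DAPT and 6.08 to 7.82% in the 6 with it, and Grin2b (bottom segment) makes 49.7 to 58.5% and 66.3 to 69.8%.

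The summed GluN2 level ranged from 41.0 to 60.4 CPM without DAPT and from 56.2 to 62.9 CPM with it, with overlap. Grin1 stood at 1.41 ± 0.131 times that sum in vehicle, 1.496 ± 0.283 times with sErbB4, 1.45 ± 0.0682 times with DAPT and 1.55 ± 0.0294 times with DAPT + sErbB4. The ratio of Grin2b to Grin2a, which falls as forebrain neurons mature, was 5.45 ± 0.191 in vehicle, 4.72 ± 0.683 with sErbB4, 5.24 ± 0.0630 with DAPT and 5.10 ± 0.258 with DAPT + sErbB4. Both ratios overlapped between libraries with and without DAPT (4.21 to 5.65 and 4.81 to 5.31 for Grin2b to Grin2a). The ratio of Grin2b to Grin2c did not, at 2.04 to 3.33 without DAPT and 8.47 to 11.2 with it.

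Library totals ranged from 36518802 to 54350270 counts, and totals on named loci from 18697788 to 30777171. In the leading components of all genes, sErbB4 replicate 1 and vehicle replicates 2 and 3 stood apart from their groups. Without sErbB4 replicate 1, the log2 changes in DAPT + sErbB4 against sErbB4 were -1.32 for Grin2c, 0.74 for Grin2b, 0.50 for Grin2a, 0.35 for Grin1 and -0.96 for Grin3b, and all 5 were called. In DAPT against vehicle, Grin2c was called without vehicle replicate 2 (-1.39) and without vehicle replicate 3 (-1.38). Grin2a was called there without vehicle replicate 3 (0.52, adjusted p = 0.043, edgeR) but not without vehicle replicate 2 (0.40, adjusted p = 0.12). Leaving out libraries that a comparison does not use barely moves its fold but refits the shared spread, and this ended the call of Grin2a in DAPT against vehicle (without sErbB4 replicate 1, adjusted p = 0.054) and that of Grin3b with sErbB4 present (without vehicle replicate 2 or 3, adjusted p = 0.063 and 0.061). The cultures were mixed. The summed level of 10 astrocyte markers (6008 to 7406 CPM) exceeded that of 8 neuron markers (1249 to 1692 CPM), and fewer cells of a type cannot be told apart from less RNA per cell in such samples.

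Several marker sums differed between cultures with and without DAPT, and some between those with and without sErbB4. Their part in the results was not tested. The 8 neuron markers summed to 1249 to 1477 CPM without DAPT and 1460 to 1692 CPM with it. Of these, 5 of the 8 were higher in DAPT against vehicle and 2 of the 8 with sErbB4 present. Among all genes, 4.66% and 4.55% were called higher in these comparisons and 6.92% and 7.15% lower, which applies to every count given for them in this paragraph. The 6 glutamatergic neuron markers summed to 212 to 250.5 CPM and 254 to 309 CPM, with 1 of 6 higher in either comparison, and the dentate granule cell markers to 78.7 to 89.8 CPM and 91.6 to 106 CPM, with 1 and 3 of 6 tested higher. The sums of the 10 GABAergic interneuron markers overlapped (262 to 359 CPM and 343 to 407 CPM), with 1 of 10 higher in DAPT against vehicle and 1 higher and 1 lower with sErbB4 present. The 6 radial glia markers, led by Fabp7, summed to 3770 to 4434 CPM and 1957 to 2265 CPM. In either comparison 3 of 6 were lower, and the other 3 had log2 changes above 0 and were not called. The 6 markers of oligodendrocyte precursors summed to 999 to 1084 CPM and 521 to 595 CPM, with 4 of 6 lower in either comparison. Astrocyte markers were mixed, with 2 of 10 higher (Gja1 and Gjb6) and 3 lower (Aldh1l1, Aldoc and Slc1a3). With sErbB4 the neuron sum was higher than in vehicle (1363 to 1477 against 1249 to 1339 CPM). It was also higher with DAPT + sErbB4 than with DAPT (1613 to 1692 against 1460 to 1547 CPM). The astrocyte sum was lower in both cases (6008 to 6289 against 6297 to 7072 CPM, and 6615 to 6883 against 6984 to 7406 CPM). Neither comparison called any neuron or astrocyte marker (edgeR), where 0.0319% and 0% of all genes were called.

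Set against the summed neuron markers of the same library, Grin1 stood at 5.11 to 5.90% of that sum without DAPT and 5.41 to 6.02% with it, so that its ranges overlapped on this scale. Grin2b overlapped as well, at 1.41 to 2.59% and 2.42 to 2.71%, as did Grin2a, at 0.319 to 0.490% and 0.468 to 0.519%. Means without and with DAPT were 5.48 and 5.64% for Grin1, 2.15 and 2.56% for Grin2b, and 0.423 and 0.495% for Grin2a. Grin2c stayed apart, at 0.620 to 0.868% and 0.226 to 0.286%, and so did Grin3b, at 0.0649 to 0.0946% and 0.0284 to 0.0534%. Grin3a, flat in CPM, was lower on this scale in all 6 libraries with DAPT (0.409 to 0.502% against 0.509 to 0.592%), a narrow gap. These ratios were not tested.

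The long transcripts of Grin2a and Grin2b also call for a look at transcript length. Of 10731 genes with an annotated length that averaged 5 CPM or more, the longest 10% began at 7127 bases. Relative to each gene's mean over the 12 libraries, the median log2 deviation of these long genes was -0.12 in sErbB4 replicate 2, the library with the lowest Grin2a and Grin2b, where that of the other genes was 0.03. In the 6 libraries with DAPT it lay between 0.01 and 0.05, and in the remaining 5 between -0.05 and 0.04. The longest transcript of Grin3a, with 7491 bases, also passes this length. Grin3a stood at 7.34 CPM in sErbB4 replicate 2, between the other sErbB4 libraries (7.08 and 8.22 CPM). The part of transcript length in the values of these subunits was not tested.

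For each subunit the 3 genes with the most similar levels over the 12 libraries were drawn from 10886 genes averaging 5 CPM or more (10887 for Grin3b), by Pearson's r of log2 CPM. The libraries share their groups, so that r mirrors the DAPT effect as well as the spread between libraries. Grin2c was closest to Tmc7 (r = 0.993), Lfng (0.990), a glycosyltransferase, and Tnk2 (0.989), a tyrosine kinase. In DAPT against vehicle, Tmc7, Lfng and Tnk2 changed by -1.249, -1.37 and -0.45 on the log2 scale, against -1.40 for Grin2c. Grin2b was closest to Tanc2 (0.990), a postsynaptic scaffold protein, Slc8a1 (0.986), a sodium-calcium exchanger, and Pclo (0.985), a protein of the presynaptic active zone. Grin1 was closest to Ppm1e (0.980), Kcnd2 (0.964), a potassium channel, and Pde1a (0.960), and Grin2a to Nexmif (0.981), Ppfia4 (0.974) and Tenm2 (0.974). The likeness was weaker for Grin2d, to Ccdc43 (0.924), Tmed8 (0.898) and Flrt1 (0.885), and for Grin3a, to Ttyh1 (0.862), Dcaf7 (0.846) and Stk24 (0.839), the subunits that were not called. Grin3b was closest to Gstt1 (0.958), Kpna6 (0.948) and Ptpn9 (0.936).

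Genes that work with the receptor were followed in 6 lists. Those that make, move or break down the coagonists glycine and D-serine were mostly lower with DAPT, with 8 of the 13 tested (of 15 listed) called lower in DAPT against vehicle and 7 of 13 with sErbB4 present (6.92% and 7.15% of all genes were lower) and 0 higher in either. Their median log2 change was -0.41 and -0.42, against 0.01 over all genes in both comparisons. Slc6a9, the glycine transporter GlyT1, fell by 0.65 and 0.82 on the log2 scale (adjusted p = 9.8e-06 and 1.8e-06, edgeR), the neutral amino acid transporter Slc1a4 fell by 0.64 and 0.65, and Slc7a10, which carries D-serine and glycine, fell by 0.55 and 0.63. Phgdh and Psat1, which make serine from glycolytic intermediates, and Shmt2, which turns serine into glycine, fell as well (-0.44 and -0.53, -0.50 and -0.48, and -0.40 and -0.54).

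Among the 10 genes of glutamate supply and removal, 1 was higher and 1 lower in DAPT against vehicle, and 3 were higher and 1 lower with sErbB4 present, where 11.6% and 11.7% of all genes were called. Slc38a1, a glutamine transporter, rose by 0.63 and 0.60, and the glial glutamate transporter Slc1a3, also an astrocyte marker above, fell by 0.41 and 0.45. Slc17a7, the vesicular glutamate transporter VGLUT1, rose by 0.33 with sErbB4 present, and its change of 0.27 against vehicle (adjusted p = 0.0074, edgeR) was under the fold limit.

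Of the 16 auxiliary, scaffold and transport proteins, 3 were higher and 1 lower in DAPT against vehicle and 4 higher and 1 lower with sErbB4 present, where 4.66% and 4.55% of all genes were higher and 6.92% and 7.15% lower. Neto1, an auxiliary protein of NMDA and kainate receptors, rose by 0.38 and 0.42, and Lin7b, part of the complex that carries Grin2b along dendrites, by 0.33 and 0.54. Ephb2, a receptor tyrosine kinase that binds GluN1, fell by 0.42 and 0.45. The list's median log2 change was 0.10 and 0.07.

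The 18 kinases and phosphatases that act on the receptor gave 2 and 1 higher, where 4.66% and 4.55% of all genes were, and 0 lower (medians 0.10 and 0.08). Camk2a rose by 0.36 against vehicle and changed by 0.31 with sErbB4 present, and Prkca changed by 0.27 and 0.23. The last 3 of these changes were under the fold limit. Of the 12 genes of calcium-dependent signaling downstream, 3 and 4 were higher and 0 lower (medians 0.17 and 0.14), against the same shares of all genes. Rasgrf1, a calcium-activated exchange factor for Ras that binds GluN2B, rose by 0.66 and 0.54, Camk4 by 0.36 and 0.35 and Rasgrp1 by 0.37 and 0.33.

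The other ionotropic glutamate receptors, 11 AMPA, kainate and delta subunits, gave 2 higher and 0 lower in DAPT against vehicle, namely Gria1 (0.35) and Grik4 (0.35), where 4.66% of all genes were higher and 6.92% lower. With sErbB4 present 0 of the 11 were called (edgeR), where 11.7% of all genes were. An unadjusted p under 0.05 was found for 4 of the 11 (edgeR), against 5589 of all 15656 genes. Gria1 then changed by 0.29 (adjusted p = 0.00028, edgeR) and Grik4 by 0.28 (adjusted p = 0.0089, edgeR), both missing only the fold limit. Grik2 changed by 0.19 and 0.21 without passing the test. The list's medians were -0.03 and -0.05. In sErbB4 against vehicle and in DAPT + sErbB4 against DAPT, 0 of the 80 genes tested in the 6 lists were called (edgeR). Of all genes, 0.0319% and 0% were. In each comparison 19 of the 80 had an unadjusted p under 0.05 (edgeR), against 1184 and 1442 of all 15656 genes.

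**Figure D4:**
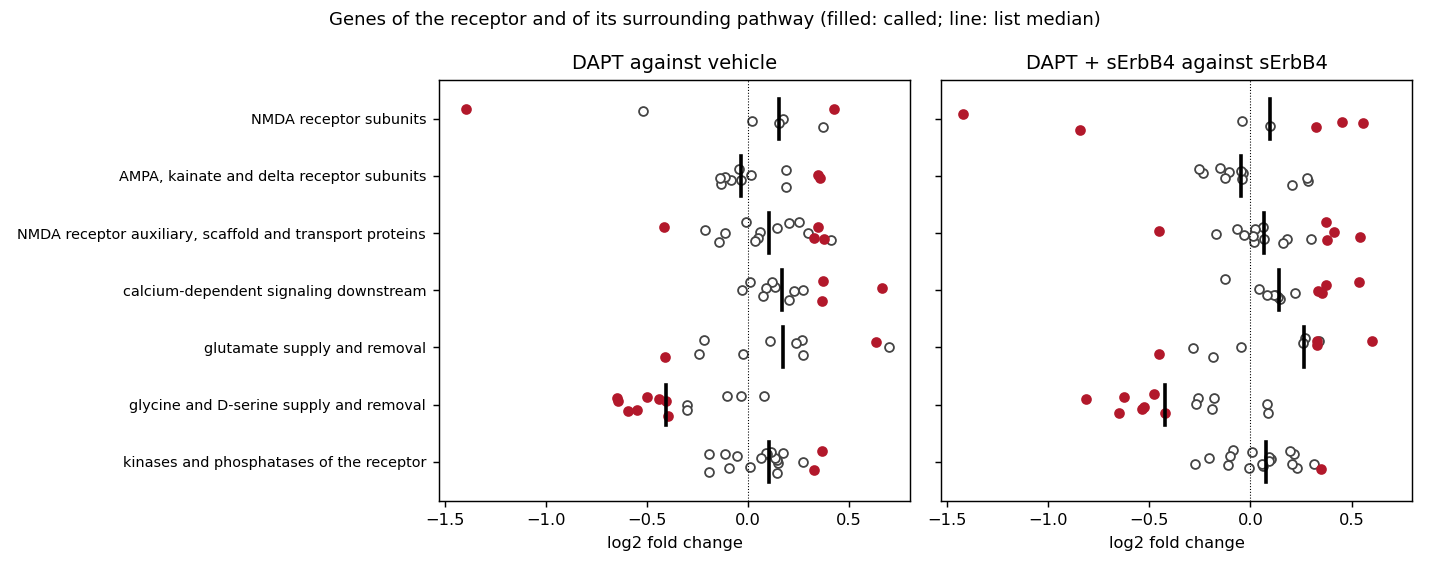
Log2 fold change (x axis) of the NMDA receptor subunits and of the genes in the 6 surrounding lists in the 2 comparisons of DAPT with its control. Each point is 1 gene, filled where called, vertical spread within a list has no meaning, and the black line is the list's median; the coagonist list has its median at -0.41 and -0.42 and the AMPA, kainate and delta list at -0.03 and -0.05.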

How the data were processed

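RNA was poly-A selected and sequenced from 12 cultures. Per the study's methods, HISAT2 alignment to mm10 followed Trimmomatic and preceded StringTie assembly, which also admitted loci outside the annotation. Gene values were taken with IsoformSwitchAnalyzeR, and the submitters' processing notes also list FastQC, MultiQC and limma, all without versions. The authors deposited estimated counts for 21312 loci, without scaling between libraries. Values under 5 were whole multiples of 1 step per library (tolerance 0.01 of a step), as values rebuilt from length-corrected abundances would be, and the reads behind a gene are unknown. The 1976 loci without a gene name held 43.4 to 51.8% of counts and were left out. Rn45s, a ribosomal precursor, held 31.4 to 44.6% of named counts.

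Counts were rounded, filtered with filterByExpr (15656 genes kept, all 7 subunits included), TMM-scaled and fitted as 4 group means in edgeR 4.0.16 (R 4.3.3), with 8 residual degrees of freedom. SEs and 95% intervals were derived from the p-value. p-values were adjusted by Benjamini-Hochberg over all genes, and a call needed both an adjusted p under 0.05 and a log2 change over 0.32, the limits the study used. Sums, ratios and similar genes used TMM CPM. Named genes were all 7 subunits, the 3 members of each other list with a mean of at least 5 CPM and the largest average change under DAPT, and the 3 most similar genes of each subunit. A gene that this rule names is not reported here. Phgdh, Psat1 and Shmt2 and the astrocyte genes were named after their values were seen. The subunits and lists were chosen with earlier results of these data known. The alternatives were RLE scaling, no low-count filter, DESeq2 1.42.0, limma 3.58.1 on log2(CPM + 2), keeping unnamed loci, dropping Rn45s, fitting only the libraries compared, a replicate block and leaving out each library. Code was tested on simulated data.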

Additional observations from a re-analysis of the deposited data

How the results depend on the processing

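Of 966 alternative fits of 1 subunit in 1 comparison, 885 kept direction and side of the threshold, 42 lost a call, 4 gained one and 35 changed sign. No call changed sign. In DAPT against vehicle, 1 subunit was called with no low-count filter and 1 with limma, against 2, 3 were called when only the libraries compared were fitted, and leaving out single libraries gave 1 to 3. In DAPT + sErbB4 against sErbB4, 2 were called when only the libraries compared were fitted, against 5, and 1 to 5 when single libraries were left out. The average effect gave 2 with limma and 3 with DESeq2, against 4, and 3 to 4 without single libraries. In sErbB4 against DAPT it was 1 to 2, against 1. With limma, the average changes of Grin2a (0.31, adjusted p = 0.0046) and Grin3b (-0.22, adjusted p = 0.0044) missed only the fold limit. The log2(CPM + 2) scale of that fit shrinks folds of low levels. The cause of the other differences was not tested.

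Replicate numbers were not taken to pair the samples, as the labels do not say that they do. Over 18 same-number pairs r ran from -0.28 to 0.36, with 8 above 0.1. Pairs of different numbers were not set beside them, so these values cannot decide whether libraries were paired. With the replicate block, 2 subunits were called in DAPT against vehicle, 4 in DAPT + sErbB4 against sErbB4 and 4 on average, and 0, 0, 1 and 0 in sErbB4 against vehicle, DAPT + sErbB4 against DAPT, sErbB4 against DAPT and the interaction.

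The changes of sign were all in values that missed the threshold. Grin3a in DAPT against vehicle was -0.0148 with limma, the interaction of Grin2c 0.0049 with limma and that of Grin2a -0.00221 with unnamed loci kept. Without single libraries, the log2 changes in sErbB4 against vehicle ran from -0.0208 to 0.0983 for Grin1, -0.23 to 0.15 for Grin2b, -0.12 to 0.0591 for Grin2c, -0.0160 to 0.21 for Grin2d, -0.0041 to 0.10 for Grin3a and -0.11 to 0.16 for Grin3b. In DAPT + sErbB4 against DAPT they ran from -0.10 to 0.0311 for Grin2c, -0.0375 to 0.0820 for Grin2d and -0.0438 to 0.0336 for Grin3a, and in sErbB4 against DAPT from -0.17 to 0.0290 for Grin2d and -0.0247 to 0.0800 for Grin3a. Grin3a ran from -0.0064 to 0.0638 in DAPT against vehicle, -0.0831 to 0.0214 in DAPT + sErbB4 against sErbB4 and -0.0312 to 0.0210 on average. The interaction ran from -0.15 to 0.17 for Grin2a, -0.0149 to 0.37 for Grin2b, -0.10 to 0.0782 for Grin2c, -0.18 to 0.0458 for Grin2d and -0.11 to 0.00080 for Grin3a. Leaving out single libraries moved the Grin2a share of the GluN2 pool within 10.4 to 10.6% in vehicle and 10.9 to 12.2% with sErbB4. Grin3b had the lowest counts of the 7, 13 to 40 per library.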
